A study of Mus musculus with 7 samples.

Results

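The HoxC cluster is a row of 9 homeobox genes on mouse chromosome 15, and the peaks described here are the 27 anti-Six4 peaks, of 58528 in the whole list, whose midpoints lie in the mm9 interval from 102740000 to 102880000 (140 kb, running from the Hoxc13 end to the Hoxc4 end). The interval was chosen by its peaks in an earlier look at the same list, so their number, and every width and line number that comes with it, is a description and carries no test. The HoxA (chromosome 6, 52095000 to 52215000), HoxB (chromosome 11, 96050000 to 96240000) and HoxD (chromosome 2, 74500000 to 74612000) clusters were counted in the same way for comparison and held 18, 19 and 12 peaks.

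Peaks come from chromatin immunoprecipitation followed by sequencing (ChIP-seq) in C2C12, a mouse myoblast line that fuses into myotubes when serum is lowered, after 24 h in differentiation medium with horse serum. The 1 library analysed here used an anti-Six4 antibody in the shNS line, which stably carries a control hairpin and in which Six4 was not targeted. The other 6 libraries (anti-Six4 in the shSix4 knockdown line, anti-Flag in the Flag-Six4 and parental lines, rabbit IgG in the parental line, and input DNA of the parental and shNS lines) were not analysed here, so whether the HoxC peaks depend on Six4 was not tested. Whether shNS is 1 clone or a pool is not stated in the labels. There is no replicate, the depth of sequencing is unknown, and intervals below are 95% intervals for counting error only.

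Hox genes encode homeodomain transcription factors that give cells their position along the head-to-tail axis. They sit in 4 clusters, and within a cluster the order of the genes on the chromosome follows the order in which they act along the body. Six4 is itself a homeodomain factor, of the sine oculis family. It binds regulatory DNA of muscle genes, often at the MEF3 site, and works with cofactors of the Eya family. Of the HoxC genes, Hoxc4, Hoxc5 and Hoxc6 act toward the neck and forelimb, Hoxc8 and Hoxc9 in the trunk, and Hoxc10, Hoxc11 and Hoxc12 toward the hindlimb and tail. Hoxc13 is known for its part in hair and nails.

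All 9 genes were found in RefSeq's GRCm38.p6 gene table, which was used for the order of the genes and not for positions, since the peaks are in mm9. From low to high coordinate the order is Hoxc13, Hoxc12, Hoxc11, Hoxc10, Hoxc9, Hoxc8, Hoxc6, Hoxc5 and Hoxc4. The same stretch holds 5 further genes. Hotair, a long noncoding RNA known for its reported link to Polycomb proteins, starts between Hoxc12 and Hoxc11. The noncoding genes Gm36878 and Gm29905 start between Hoxc9 and Hoxc6, on either side of Hoxc8. The microRNA genes Mir196a-2 and Mir615 start between Hoxc10 and Hoxc9 and between Hoxc5 and Hoxc4. No peak was assigned to a gene, exon, intron or promoter, because no mm9 annotation or sequence was used here.

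The clusters arose from 1 ancestral cluster, and their microRNAs still show it, which is why the mature sequences are given (RefSeq, GRCm38.p6, bases 2 to 8, the seed, in capitals). Mir196a-2 in HoxC and Mir196a-1 in HoxB make the same mature RNA, and Mir196b in HoxA makes one with the same seed.
mmu-miR-196a-5p: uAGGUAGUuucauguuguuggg
mmu-miR-196b-5p: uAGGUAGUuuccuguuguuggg
mmu-miR-615-3p: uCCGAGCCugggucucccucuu
From miR-196a-5p to miR-196b-5p the substitution, counted from the 5′ end, is A12C, outside the seed. The product of Mir615, shown last, has a seed of its own.

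HoxC held the most peaks per length of the 4 Hox clusters. Its density was 19.3 peaks per 100 kb (exact Poisson interval 12.7 to 28.1), against 15.0 in HoxA (8.89 to 23.7), 10.7 in HoxD (5.54 to 18.7) and 10.0 in HoxB (6.02 to 15.6). Over the whole list, from the first to the last peak of each chromosome, it was 2.28 per 100 kb. All 4 clusters thus lay above the list's average, and HoxC was 8.47 times as dense as that average. The HoxB interval includes the long stretch that separates Hoxb13 from the other HoxB genes. Whether that stretch bears on the HoxB density was not tested.

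The order among the clusters is less firm than their distance from the list. HoxC was 1.93 times as dense as HoxB (exact conditional interval 1.03 to 3.67), 1.80 times as dense as HoxD (0.882 to 3.90) and 1.29 times as dense as HoxA (0.683 to 2.48). Against the 49 peaks of the other 3 clusters together the ratio was 1.66 (0.998 to 2.71). The intervals for HoxA, HoxD and the 3 together include equality, and that for HoxB begins close to it. None allows for HoxC having been picked for its count, or for close neighbours not being independent. With peaks under 500 bp apart merged, HoxC held 22 peaks, HoxA 13, HoxB 17 and HoxD 10.

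**Figure D1:**
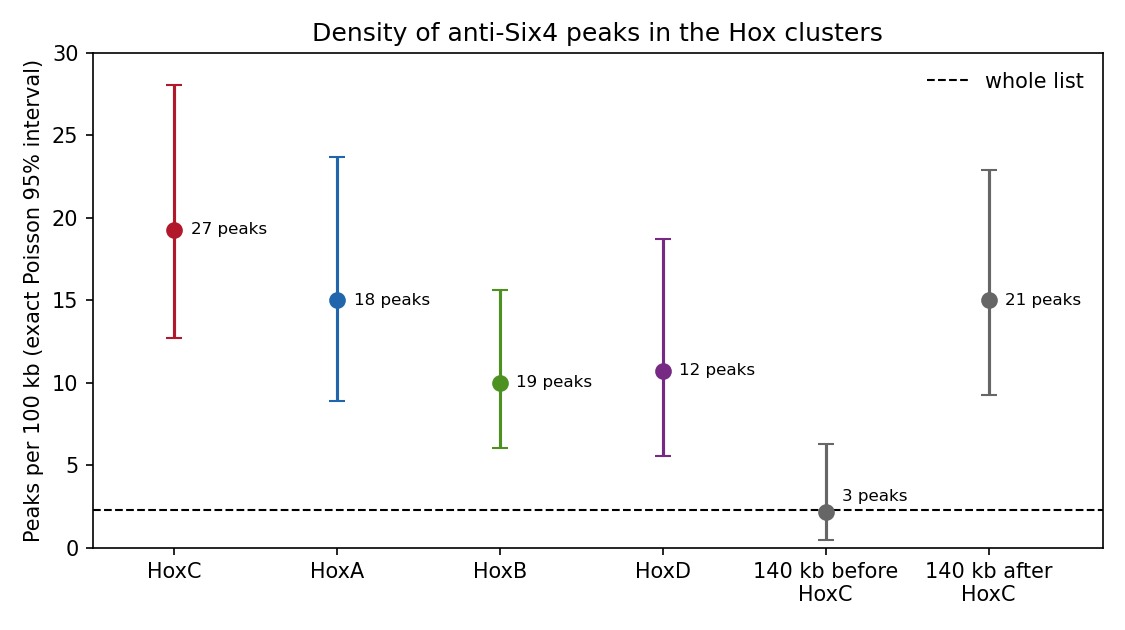
Peaks per 100 kb (points) with exact Poisson 95% intervals (bars) in the 4 Hox clusters and in the 140 kb on either side of HoxC; the dashed line is the whole list at 2.28. HoxC is highest at 19.3, the stretch before it sits at the dashed line, and the intervals of the 4 clusters overlap.

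Few windows of the same length over the genome held as many peaks, though HoxC was chosen by its peaks and the windows were not. When the chromosomes were cut into 18354 windows of 140 kb, the median window held 2 peaks, 99% of windows held at most 15, and 32.9% held none. At least 27 peaks were found in 1 window (0.00545% of windows), on chromosome 1 from 34230761 to 34370760. These windows do not line up with HoxC. The window over most of the cluster held 22 peaks and the next one 17. On this grid 4 windows held 23 peaks, 1 held 24 and 1 held 27, so the window over HoxC was not the densest. With the start of the stretch free to slide, the densest stretch of this length held at least 27 peaks on 2 of the 20 chromosomes, chromosomes 1 and 15, with 27 on each, and the one on chromosome 15 began at the first HoxC peak. On chromosomes 11 and 8 the densest stretch held 26, close to HoxC. Lying in the densest stretch of its chromosome was not particular to HoxC. That of chromosome 6 held 22 peaks and began at 52100069, in the HoxA interval.

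**Figure D2:**
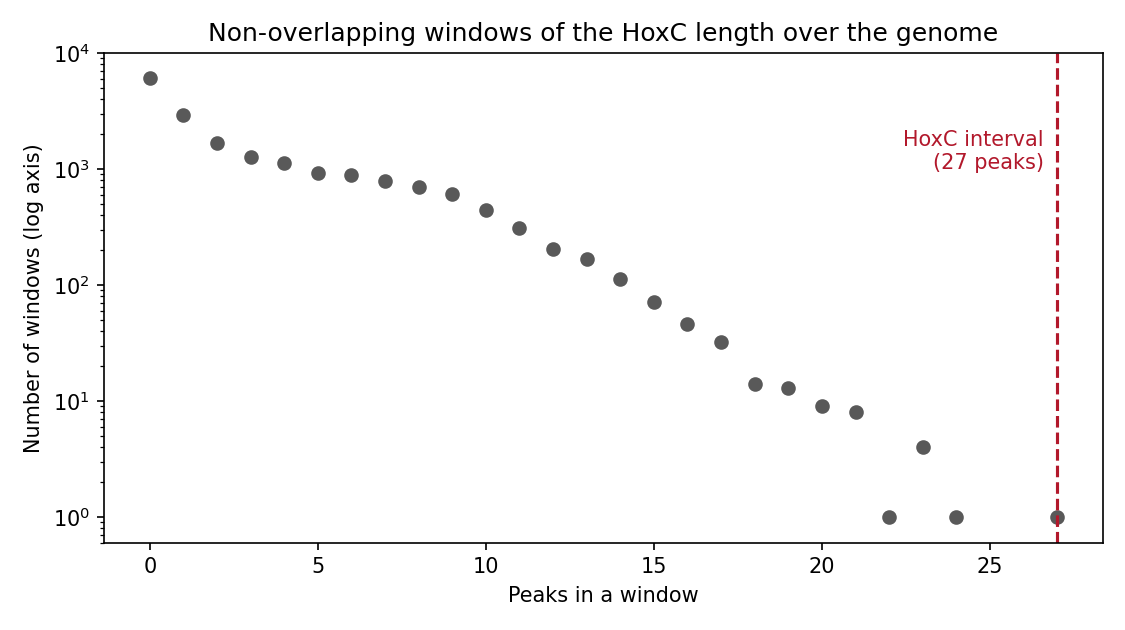
Number of non-overlapping 140 kb windows (log axis) by the number of peaks they hold; the dashed line marks the 27 peaks of the HoxC interval. The point on the line is the chromosome 1 window, and the window over most of HoxC is the point at 22.

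In the adjoining 140 kb, density fell to about the list's average on the Hoxc13 side of the cluster but not on the Hoxc4 side. The 140 kb before the interval held 3 peaks, 2.14 per 100 kb (0.442 to 6.26), which is close to the list's average. The 140 kb after it held 21 peaks, 15.0 per 100 kb (9.29 to 22.9). These were unevenly spread, and many of them lay together between 246 and 274 kb from the Hoxc13-side bound, away from the cluster. Stretches farther out were not counted by side, and the rest of the megabase had 8.84 peaks per 100 kb. In RefSeq's gene order the nearest protein-coding gene before Hoxc13 is Calcoco1, a coactivator and autophagy receptor. Past Hoxc4 come Smug1, a DNA repair glycosylase, Cbx5, which encodes heterochromatin protein HP1 alpha, and Hnrnpa1, an RNA-binding protein of splicing. Which of them the 140 kb reach in mm9 was not determined.

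The bounds themselves fall in stretches without peaks. On the Hoxc13 side the first peak inside had its midpoint 0.786 kb from the bound and the last one outside 15.9 kb, with 16.4 kb free of peaks between them. On the Hoxc4 side the last peak inside was 8.39 kb from the bound and the first one outside 11.2 kb, with 19.4 kb between them. The 4 peaks at these edges were 180, 397, 268 and 202 bp wide, of which the second is above the list's median of 275 bp, and stood at lines 26589, 44718, 31082 and 45400 of the list, from low to high coordinate.

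HoxC peaks were also wide for this list. The median HoxC peak was 670 bp wide (quartiles 381 and 954 bp, range 201 to 1554 bp), whereas the median of all listed peaks was 275 bp (quartiles 204 and 454 bp). At least 500 bp were reached by 16 of 27 peaks (59.3%, exact binomial interval 38.8 to 77.6%), against 22.2% of the list. At least 1 kb was reached by 4 of 27 (14.8%, 4.19 to 33.7%), against 6.41% of the list. Together the HoxC peaks covered 18.3 kb, or 13.1% of the interval, while peaks covered 0.915% of the length spanned by the list.

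By median width and covered share HoxA was the nearest of the other clusters. HoxA peaks had a median of 657 bp and covered 12.3% of their interval, so that with fewer peaks per length the cluster was covered almost as much as HoxC. Wide peaks made up more of HoxA than of HoxC, since 14 of 18 reached 500 bp (77.8%) and 5 of 18 reached 1 kb (27.8%), the widest being 2000 bp (chromosome 6 from 52107665 to 52109664). HoxB peaks had a median of 530 bp and covered 5.25%, with 10 of 19 at 500 bp or more (52.6%) and a widest peak of 1099 bp (chromosome 11 from 96213926 to 96215024). HoxD peaks had a median of 318 bp, near that of the list, covered 3.86%, and did not exceed 670 bp. By bases covered, the windows of HoxC length held 1 that matched or passed the 18331 bp of HoxC, on chromosome 8 from 87174542 to 87314541 with 19705 bp in 21 peaks. As these windows do not line up with HoxC, the one over most of the cluster had only 15835 bp.

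Early lines of the list were common in HoxC. The quantity behind the order of the list is not known, but wide peaks tend to come early, with a Spearman's rho of -0.64 between line and width over the whole list and -0.69 over the 27 HoxC peaks, which share 1 library and 1 region. The HoxC peaks had a median line of 12546, at 21.4% of the list, and ran from line 738 to line 53975. The first 10% of lines (10.0% of the list by construction) held 7 of 27 (25.9%, 11.1 to 46.3%), and the first 50% held 22 (81.5%). In HoxA the median stood at 22.8% of the list and 3 of 18 peaks were in the first 10% of lines, but 17 of 18 in the first 50% (94.4%), more than in HoxC. In HoxB it stood at 36.5%, with 1 of 19 in the first 10% and 11 in the first 50%, and in HoxD at 58.3%, with 0 and 6 of 12. HoxC and HoxA thus sat early, HoxB nearer the middle, and HoxD past it. Some peaks of the same cluster stood at consecutive lines in coordinate order, as at lines 21386, 21387 and 21388 in HoxB. Others were at lines 22246 and 22247 in HoxA and, among several in HoxD, at 19407 and 19408. The HoxC peak at line 14104 was followed by one at 14105 in the Hoxc4-side flank. Whether such lines are tied in rank was not determined.

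**Figure D3:**
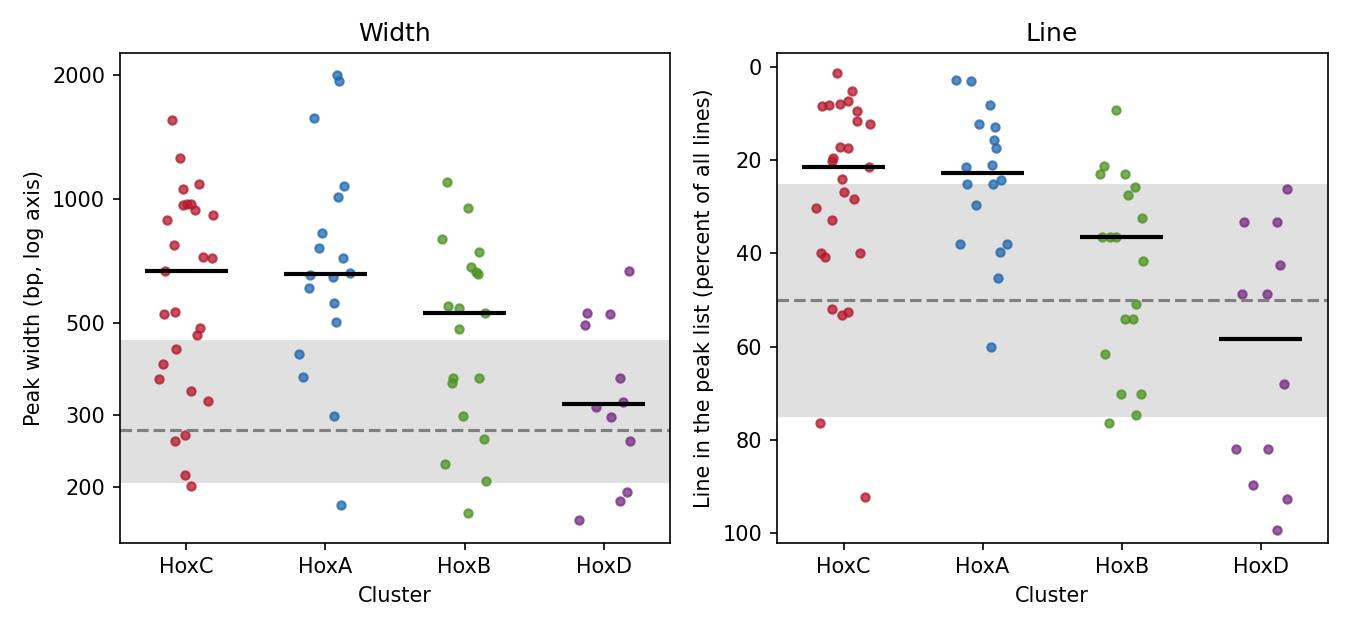
Width (left, log axis) and line in the list (right, first line at the top) of each peak (points) in the 4 clusters, with the cluster's median (black bar); the dashed line is the median of the whole list and the grey band spans its quartiles. The HoxC median width is 670 bp against 275 bp for the list, and its median line is at 21.4%.

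The earliest HoxC peak, at line 738, lay on chromosome 15 from 102796812 to 102798070 and was 1259 bp wide. It sits 57.4 kb from the low-coordinate bound, in the inner part of the cluster. Next in the list were the peaks from 102829357 to 102830298 (942 bp, line 3030), 89.8 kb from the bound, and from 102807281 to 102808255 (975 bp, line 4270), 67.8 kb from it. These 3 peaks all lie between 50 and 90 kb from the Hoxc13-side bound.

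The 4 peaks that followed came within a narrow range of lines and were spread more widely. They were the peaks from 102773024 to 102773989 (966 bp, line 4675), from 102751106 to 102752659 (1554 bp, line 4834), from 102793799 to 102794468 (670 bp, line 4953) and from 102811487 to 102811972 (486 bp, line 5487). The second of them is the widest peak of the cluster and lies only 11.9 kb from the Hoxc13-side bound. The last of them is narrow for so early a line. The list of the 10 earliest closes with the peaks from 102785920 to 102787010 (1091 bp, line 6805), from 102857413 to 102858330 (918 bp, line 7214) and from 102805998 to 102807058 (1061 bp, line 10073). The 4 peaks of at least 1 kb were all among these 10, and the peak at line 7214 was the only one of them past 100 kb.

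For comparison, the earliest peak of HoxA was at line 1641 (chromosome 6 from 52100610 to 52101029, 420 bp). The earliest of HoxB was at line 5407 (chromosome 11 from 96172937 to 96173421, 485 bp). That of HoxD came at line 15269 (chromosome 2 from 74535602 to 74536271, 670 bp) and was also its widest.

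The peaks were spread over the whole HoxC interval, and those of at least 1 kb or in the first 10% of lines lay in the 100 kb on the Hoxc13 side. In 7 segments of 20 kb, counted from the Hoxc13 side, there were 3, 3, 5, 5, 4, 2 and 5 peaks, so no segment was empty. Peak bases in these segments came to 2674, 1835, 4125, 4215, 2441, 1283 and 1758 bp. The 60 kb from 40 to 100 kb held 14 peaks with 58.8% of all covered bases, 5 of the 7 peaks in the first 10% of lines, and 3 of the 4 that reached 1 kb. The first 40 kb held 6 peaks, of which 2 were in the first 10% of lines and 1 reached 1 kb. In the last 40 kb, toward Hoxc4, there were 7 peaks with a median width of 365 bp, of which none was in the first 10% of lines or reached 1 kb. In the 140 kb past that bound 5 of 21 peaks were in the first 10% of lines. The 3 stretches of the interval were drawn after the values had been seen.

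**Figure D4:**
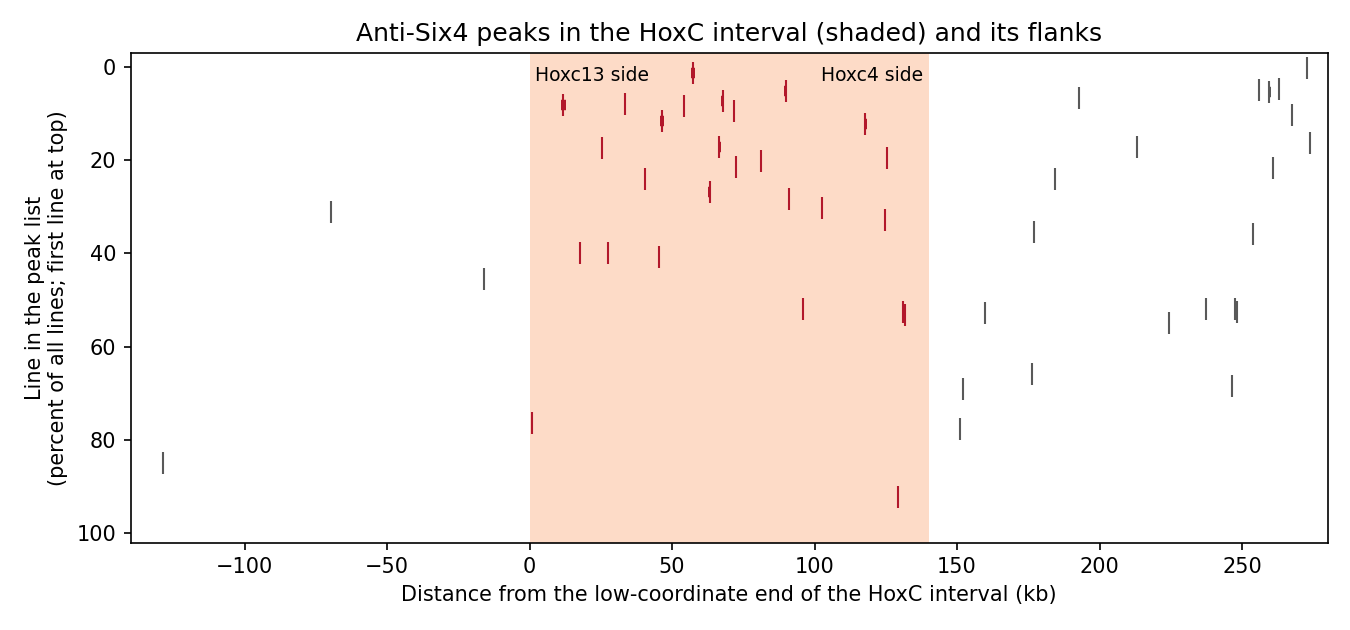
Peaks by distance from the low-coordinate bound of the HoxC interval (horizontal axis, kb; shaded from 0 to 140) and by line in the list (vertical axis, percent, first line at the top); red marks are the 27 HoxC peaks and grey marks the 3 before and 21 after it. Each mark is centred on a peak, the bar at its middle spans the peak's width to scale, and its height has no meaning. No HoxC peak past 100 kb is in the first 10% of lines, the low-coordinate flank holds 3 peaks, and early lines also occur in the far part of the other flank.

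Neighbouring HoxC peaks stood close together. Of the 26 gaps between them, 16 were at most 5 kb, while 19.0% of all gaps between neighbours in the list are that short. Short gaps follow in part from the count by which the interval was chosen, and they were common in HoxA (8 of 17) and HoxD (5 of 11) too, though not in HoxB (3 of 18). The median gap was 4.37 kb against 14.5 kb over the list, and the longest, 14.8 kb from 102842647 to 102857412, lay on the Hoxc4 side. The largest group without a gap over 5 kb had 7 peaks, from 102793799 to 102812819, and peaks covered 32.3% of its 19.0 kb. It held 4 of the 7 peaks in the first 10% of lines, among them line 738. The second largest had 5 peaks, from 102864526 to 102871749 near the Hoxc4-side bound, with 24.3% covered. In HoxA the largest such group had 4 peaks, in HoxD 3 and in HoxB 2.

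Some of the peaks were near-contiguous. In 5 places neighbours lay under 500 bp apart, with gaps of 117, 222, 127, 183 and 287 bp from low to high coordinate, and 5.12% of gaps in the list are under 500 bp. Such pairs were not particular to HoxC, as they made up 5 of 17 gaps in HoxA, 2 of 11 in HoxD and 2 of 18 in HoxB. The 2 members of such a pair could stand far apart in the list, as at lines 23903 and 6805 across the gap of 117 bp, or together, as at lines 30736 and 31082 across that of 287 bp. Joined, the pairs would be 2099, 2258, 1333, 1148 and 756 bp long, so that the 2 longest would exceed the widest single HoxC peak of 1554 bp.

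Within its own megabase of chromosome 15, HoxC was denser than the rest and had wider peaks, with a like share of early lines. The stretch from 102000001 to 103000000 held 103 peaks, of which HoxC had 26.2% on 14.0% of the length. The other 76 peaks gave 8.84 per 100 kb (6.96 to 11.1) and had a median width of 389 bp, with 4 of 76 at 1 kb or more. Of these 76, 18 were in the first 10% of lines (23.7%, 14.7 to 34.8%), a share like the 25.9% of HoxC. No test was made of these differences, since the interval was chosen on this list.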

How the data were processed

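The authors deposited, for the anti-Six4 library of the shNS line, a peak list of 3 columns (chromosome, start, end) without scores, summits or p-values. Bowtie, Picard, bedtools, MACS2 version 2.0 and the mm9 build are named, without roles or parameters, per the submitters' processing notes. The threshold and the control library are not known. Starts, counted from 0 in the file, are printed from 1. Members and lists were chosen with earlier results of these data known.

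Peaks were assigned to a cluster by midpoint. Densities have exact Poisson intervals, shares exact Clopper-Pearson intervals and density ratios exact conditional binomial intervals, all at 95%. Windows of HoxC length were tiled from the first peak of each chromosome, and assembly gaps were kept. The functions were tested on simulated data. As the cluster held too many peaks to name each, the rule named the 10 earliest lines and the 3 widest, and in the other clusters the earliest and the widest. Sliding windows, pairs, stretches, width classes, the megabase and peak coverage were added once the data had been seen. Promoter and microRNA sequences are RefSeq's, GRCm38.p6. Python 3.11.15, scipy 1.17.1, pandas 2.3.3, numpy 2.4.6 and, for plots, matplotlib 3.10.9 were used.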

Additional observations from a re-analysis of the deposited data

How the results depend on the processing

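Of 43 values recomputed under alternatives, 38 stayed within set limits (1.5 times for the count, 1 SD over peaks for width and line, the 95% interval for the rest), 5 moved past them and none reversed. Any overlap of 1 base, peaks wholly inside, merging of peaks under 500 bp apart, the first 50% of lines, peaks of at least the median width, and bounds moved by 10 kb gave 22 to 27 HoxC peaks and a density ratio to the other 3 clusters together of 1.51 to 1.95. In the first 10% of lines, an alternative added after seeing the data, HoxC held 7 peaks, 5.0 per 100 kb, and the ratio was 5.28, which rests on 4 peaks in the other clusters; fewer peaks enter by construction. With wide set at 500 bp the share was 59.3%, by construction. Windows shifted by 50% of their length gave 0 windows with 27 peaks (0.0%). No paired analysis was possible because 1 library was analysed. Depth is unknown, so weaker uncalled sites cannot be counted.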

Other observations

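Line and width can be set side by side by splitting the peaks into width classes. Among peaks from 500 bp to under 1 kb, the list has a median line of 10920, the 12 HoxC peaks one of 12143, and the 21 peaks of HoxA, HoxB and HoxD one of 16058. At 1 kb or more the medians were 5623 for the list, 5820 for 4 HoxC peaks and 9650 for 6 peaks of the other clusters. Below 500 bp the 11 HoxC peaks came earlier, with a median line of 17743 against 35162 for the list. The 22 peaks of the other clusters had one of 33402. This class is broad, with 77.8% of the list, and widths within it were not matched. Later than the list's median of their own width class were 11 of 27 HoxC peaks (40.7%). The classes differed, with 2 of 11 below 500 bp, 7 of 12 from 500 bp to under 1 kb and 2 of 4 at 1 kb or more. In the other clusters 34 of 49 peaks were later (69.4%), or 10 of 22, 19 of 21 and 5 of 6 in the same classes. In the whole list 29263 of 58528 were, by construction. These values come from the list that chose the interval and were not tested.

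The latest HoxC peak, singled out after its value was seen, was at line 53975 (102869181 to 102869504, 324 bp). It lies in the group of 5 peaks near the Hoxc4-side bound, whose other members were at lines 11467 to 31082. Past that bound, the earliest peak of the following 140 kb was at line 155 (103012503 to 103013221, 719 bp), earlier than any HoxC peak, at 132.9 kb beyond the interval.

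Sequence near Hox gene starts was searched for binding-site letters of the sine oculis family in RefSeq's promoter table (GRCm38.p6, 250 bases before to 50 after each start), which holds 22 Hox genes with 24 promoters, and of the HoxC genes Hoxc4. The MEF3 site TCAGGTTTC, on either strand, was in none of the 24 and in 0.429% of all 32851 promoters. Its first 7 letters, TCAGGTT, were in 2 of 24, of Hoxd13 and Hoxd11, and in 4.07% of all. The sine oculis core TGATAC was in none of the 24 and in 5.46% of all. The Hoxc4 window held none of the 3, which says only that these letters are not in it. Whether a peak lies on any of these windows was not determined, because the builds differ.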
